A study of Mus musculus with 10 samples.

Results

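The genes described here make cholesterol, sense it, take it up and move it out of the cell: 31 listed genes, taken by name for their place in sterol metabolism with earlier results of these data known, of 52636 gene identifiers in the count table. They fall into 5 groups, with 7 enzymes that lead from acetyl-CoA to farnesyl diphosphate, 11 enzymes that lead from there through squalene to cholesterol, 4 genes of sterol sensing, 5 of uptake and transfer within the cell, and 4 of efflux, storage and oxysterol synthesis. All 31 were in the table, and 30 passed the filter on low counts. The genes were measured by RNA sequencing of the inguinal fat pad, a white depot under the skin, of C57BL/6 mice aged 6 months. The knockout group held 5 libraries from mice with Tcf7l2 alleles written F/F and a transgene written Adp-Cre, whose promoter the labels do not spell out, labelled as an adipose knockout. The control group held 5 libraries from mice with the same F/F alleles and no Cre listed, labelled wild type. Both groups were fed a 65% high-fat diet, given as 16 weeks, 12 weeks or 4 months in different labels. The whole tissue was sequenced, so cells outside the reach of the Cre keep Tcf7l2, a transcription factor of Wnt signalling, and no group with Cre alone is listed.

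Cells build cholesterol from acetyl-CoA through mevalonate and farnesyl diphosphate, then close the chain into a ring system and trim it. Low sterol in the endoplasmic reticulum lets the escort protein SCAP carry the transcription factor SREBP-2 to the Golgi for cleavage, and INSIG proteins hold the pair back when sterol is plentiful. SREBP-2 raises the genes of synthesis and uptake together. Oxysterols act the other way through the liver X receptors, which raise the export pumps ABCA1 and ABCG1. Fat cells hold a large store of unesterified cholesterol around their lipid droplets and make little of it themselves.

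Sequences from the start sites are shown because SREBP-2 binds there, next to the general factor NF-Y, which reads the CCAAT box. RefSeq entries on GRCm38.p6 matched 24 of the 31 genes, and the 250 bases before each RefSeq start were searched on both strands. The letters TCACCNCA, a form of the sterol regulatory element chosen with these promoters in view, and CCAAT share no base in the promoters printed. Shown are the 5 enzymes whose rise passed whichever library was left out (Mvd, Idi1, Lss, Cyp51 and Hsd17b7), followed by the other 2 genes that held TCACCNCA (Hmgcs1 and Srebf2). They lie at chr8:122443423-122443672 (minus strand), chr13:8885356-8885605 (plus), chr10:76531355-76531604 (plus), chr5:4104698-4104947 (minus), chr1:169969206-169969455 (minus), chr13:119690101-119690350 (plus) and chr15:82147019-82147268 (plus). The GENCODE gene starts lie within 105 bases of these RefSeq starts. Capitals mark TCACCNCA and CCAAT, the second written ATTGG where it lies on the opposite strand.
Mvd: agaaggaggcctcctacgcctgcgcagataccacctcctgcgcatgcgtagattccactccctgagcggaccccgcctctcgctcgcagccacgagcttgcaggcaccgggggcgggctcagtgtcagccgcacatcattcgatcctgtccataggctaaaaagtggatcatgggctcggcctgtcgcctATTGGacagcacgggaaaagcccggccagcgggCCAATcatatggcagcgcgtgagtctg
Idi1: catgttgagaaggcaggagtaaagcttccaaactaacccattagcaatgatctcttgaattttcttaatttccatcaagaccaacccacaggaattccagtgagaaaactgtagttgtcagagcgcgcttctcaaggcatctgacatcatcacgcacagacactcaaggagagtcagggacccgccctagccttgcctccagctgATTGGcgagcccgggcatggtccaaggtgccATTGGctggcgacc
Lss: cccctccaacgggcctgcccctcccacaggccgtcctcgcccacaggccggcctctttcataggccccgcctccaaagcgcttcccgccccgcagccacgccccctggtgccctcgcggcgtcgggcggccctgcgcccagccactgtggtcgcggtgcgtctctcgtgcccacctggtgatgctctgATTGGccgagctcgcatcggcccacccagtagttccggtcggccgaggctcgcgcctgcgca
Cyp51: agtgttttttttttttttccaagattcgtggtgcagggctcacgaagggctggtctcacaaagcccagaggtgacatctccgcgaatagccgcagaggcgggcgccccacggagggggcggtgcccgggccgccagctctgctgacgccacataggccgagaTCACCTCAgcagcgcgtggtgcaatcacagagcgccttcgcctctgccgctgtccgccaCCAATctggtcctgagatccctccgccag
Hsd17b7: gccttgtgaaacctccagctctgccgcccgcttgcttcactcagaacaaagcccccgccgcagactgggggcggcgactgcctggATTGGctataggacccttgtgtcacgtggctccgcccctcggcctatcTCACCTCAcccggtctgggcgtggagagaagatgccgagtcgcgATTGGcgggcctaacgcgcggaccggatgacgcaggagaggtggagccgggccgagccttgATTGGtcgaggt
Hmgcs1: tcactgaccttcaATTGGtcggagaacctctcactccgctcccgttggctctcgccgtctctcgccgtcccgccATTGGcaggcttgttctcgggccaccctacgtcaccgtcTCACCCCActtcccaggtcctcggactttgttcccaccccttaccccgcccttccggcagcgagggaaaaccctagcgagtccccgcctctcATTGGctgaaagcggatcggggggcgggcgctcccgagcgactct
Srebf2: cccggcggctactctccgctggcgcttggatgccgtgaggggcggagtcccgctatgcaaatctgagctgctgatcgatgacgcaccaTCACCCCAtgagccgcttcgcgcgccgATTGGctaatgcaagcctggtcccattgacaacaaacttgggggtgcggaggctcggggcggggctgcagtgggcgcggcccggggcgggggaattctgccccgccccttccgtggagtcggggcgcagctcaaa

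A CCAAT box was found before the start of 14 of 15 enzymes of synthesis with an entry (93.3%) and of 6 of 9 other members (66.7%), against 37.5% of all 27018 genes with RefSeq promoters of the same length. A gene was counted if any of its RefSeq starts has the letters. TCACCNCA was found in 3 of the 15 enzymes (Hmgcs1, Cyp51 and Hsd17b7) and in Srebf2, and in 4.18% of all genes. Because this form was chosen with these promoters in view, the shares cannot tell whether the letters are more common in them. The GC box GGGCGG, which binds Sp1-type factors, stood in 14 of the 15 enzymes, in 7 of the 9 other members and in 35.4% of all genes. The comparison set holds each gene with a RefSeq promoter and was not matched for expression or base content. The CCAAT and GC box shares therefore cannot tell whether these boxes are particular to sterol genes. The first base of the sterol element type lay 137 bases before the start in Hmgcs1, 88 in Cyp51, 117 in Hsd17b7 and 162 in Srebf2. Of these 4 genes, Cyp51 and Hsd17b7 passed the expression test, while Mvd, Idi1 and Lss passed it without these letters. A match describes letters, and no binding was measured.

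**Figure D1:**
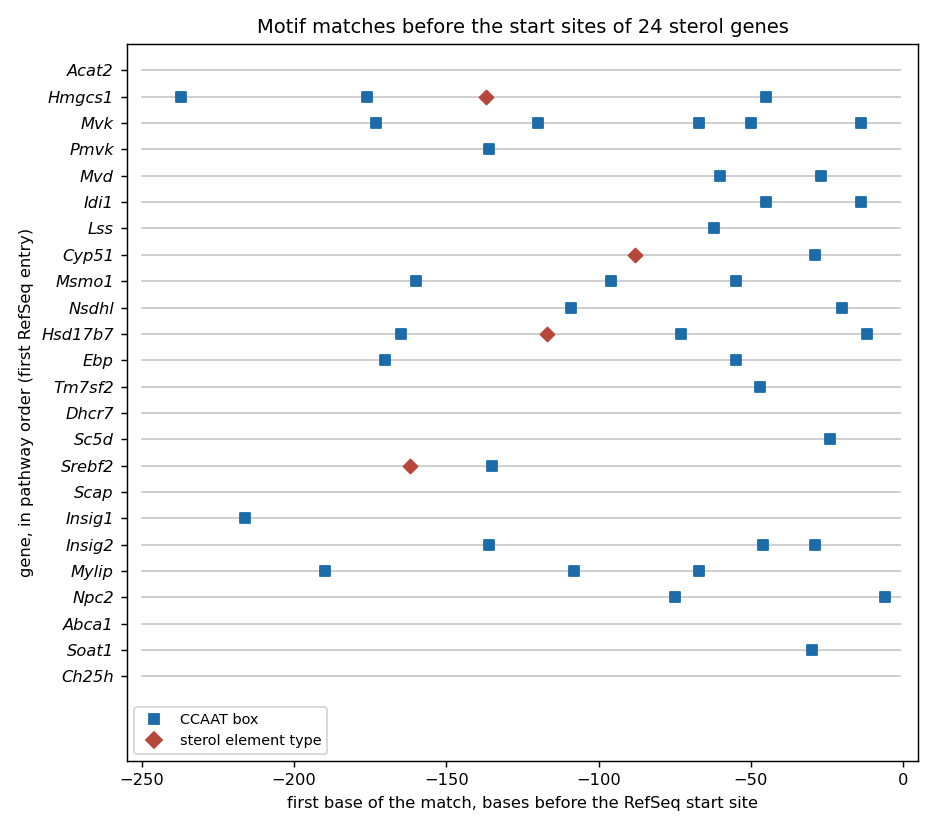
Positions of TCACCNCA (diamonds) and CCAAT (squares, either strand) in the 250 bases before the first RefSeq start of 24 sterol genes, as bases before the start. Most genes have a CCAAT box, and the diamonds belong to Hmgcs1, Cyp51, Hsd17b7 and Srebf2.

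Levels are library-scaled counts (CPM, with TMM factors). The threshold for a call was 0.05 on the Benjamini-Hochberg adjusted p of edgeR's quasi-likelihood test over all 15927 tested genes, of which 12.9% passed. Total counts ran from 14032866 to 17782073 per library. Tcf7l2 stood at 5.57, 6.14, 6.20, 5.58 and 5.68 CPM in knockout 1 to 5, against 11.1, 10.5, 9.16, 11.4 and 11.1 CPM in control 1 to 5. It fell by 0.87 on the log2 scale (SE 0.0962, adjusted p = 6.1e-04, exact permutation p = 0.0079, the smallest that 252 splits can give), so each library followed its label. No pair of libraries shares the short number in its title (1, 6, 9, 17 and 11 in knockout 1 to 5, and 7, 13, 16, 4 and 3 in control 1 to 5). The labels do not say what this number counts or state in words that each library is a separate mouse, and if some are not, p-values cover only the spread among libraries. A second, running library number in the titles goes by group, so genotype cannot be told apart from any handling in that order, while the short numbers interleave the groups. On the first principal component control 5 lay inside the knockout range and knockout 1 beyond all other libraries, and knockout 1 also had the highest summed T and B cell markers (121 and 343 CPM). Of the marker lists, 5 of 8 T cell and 4 of 6 B cell genes were higher (the B cell genes 0 of 6 in limma-voom) and 6 of 8 endothelial and 3 of 6 tested Schwann cell genes lower in knockouts. Endothelial markers summed to between 815 and 943 CPM in knockouts and between 984 and 1233 CPM in controls, and Schwann cell markers to between 193 and 226 CPM in knockouts and between 204 and 239 CPM in controls. Of 6 skeletal muscle markers 0 were called (edgeR, DESeq2 and limma-voom), with 0 at an unadjusted p below 0.05, but their sum was uneven, at 594, 95.8, 474, 31.8 and 26.8 CPM in knockout 1 to 5, against 19.9, 18.3, 18.7, 57.6 and 463 CPM in control 1 to 5. All 6 had a log2 fold change above 0 (median 1.45). Without control 5 and knockout 1, 3 of the 6 were called higher in edgeR, where 11.1% of tested genes were. The part of these other cell types in the results on sterol genes was not tested. The 10 adipocyte markers, such as Adipoq and Plin1, summed to between 25205 and 34092 CPM in knockouts and between 23215 and 29508 CPM in controls. Of these, 1 was higher and 2 lower in knockouts.

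Of the 18 enzymes of cholesterol synthesis, 7 were higher in the knockouts, 0 were lower and 11 did not pass in edgeR. In all, 8 of the 30 tested members were higher and 1 was lower, where 5.84% of all tested genes were called higher and 7.05% lower. The count depended on the tool. DESeq2 called 11 enzymes higher and limma-voom 12, with 0 lower in both, where 8.04% and 10.7% of their tested genes were higher. Below, passing refers to edgeR unless another tool is named. The log2 fold change was above 0 in 17 of 18 enzymes, against 50% of all tested genes. The ranges of the libraries did not overlap, with the knockouts above, for 7 of 18 enzymes, against 4.55% of all tested genes, and for 0 enzymes with the knockouts below, against 4.45%. The rises that passed were modest, between 1.21-fold for Mvk and 1.46-fold for Mvd. The median log2 fold change was 0.30 from acetyl-CoA to farnesyl diphosphate, 0.25 from squalene to cholesterol, 0.17 for sterol sensing, -0.18 for uptake and transfer and -0.14 for efflux and storage, beside 0.00 for all tested genes. These medians describe the groups, and no difference between the groups was tested. In bulk tissue, fewer cells of a type and less RNA per cell cannot be told apart.

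**Figure D2:**
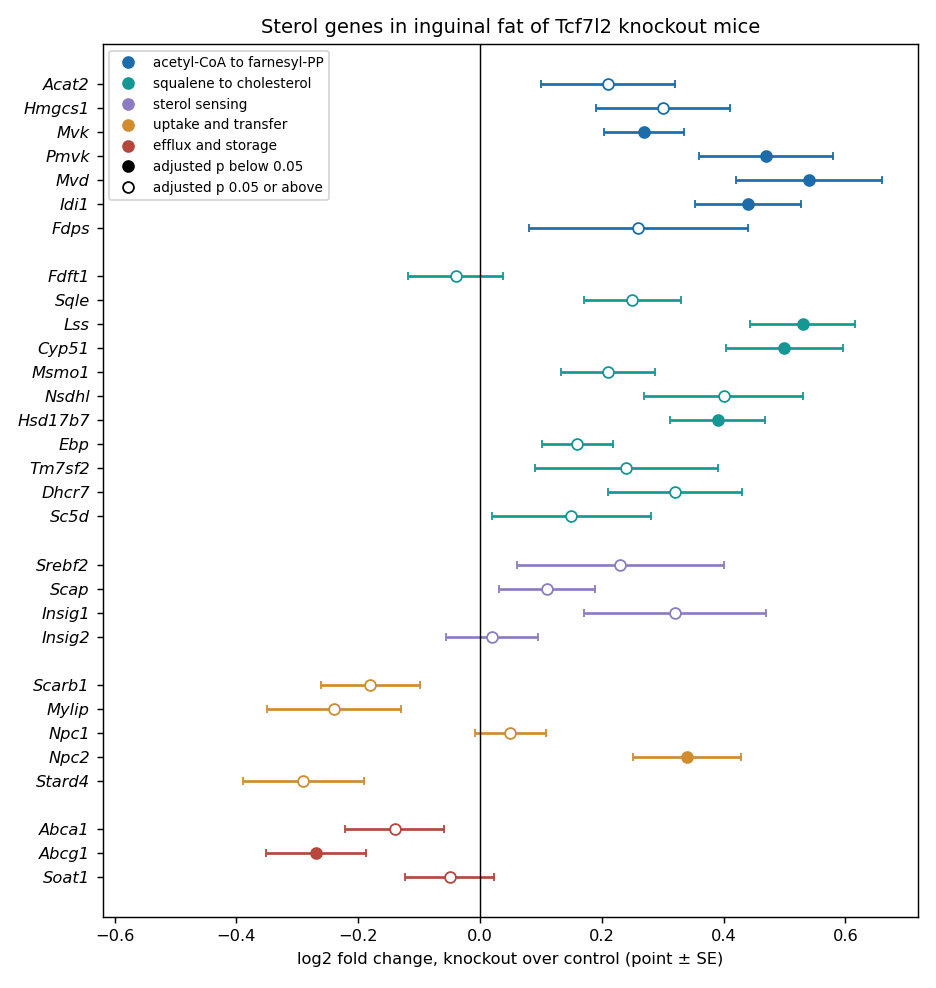
Log2 fold change of knockout over control with its standard error for the 30 tested sterol genes, by step in pathway order, with filled points for an adjusted p below 0.05. All 7 enzymes that passed lie right of 0, as does Npc2, while Abcg1 lies left of 0.

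In the first stretch, from acetyl-CoA to farnesyl diphosphate, 4 of 7 enzymes rose and 3 did not pass (gene positions are on GRCm38). Mvk (ENSMUSG00000041939, chr5:114444269-114460591, plus strand), the kinase that first phosphorylates mevalonate, stood at 31.2, 35.5, 29.5, 29.4 and 33.5 CPM in knockout 1 to 5, against 25.7, 25.9, 27.4, 26.8 and 25.7 CPM in control 1 to 5. The groups did not overlap, and the gene rose by 0.27 on the log2 scale (SE 0.0656, adjusted p = 0.023). Pmvk (ENSMUSG00000027952, chr3:89454541-89469013, plus strand), which adds the next phosphate, stood at 73.8, 97.5, 77.2, 60.9 and 96.9 CPM in knockout 1 to 5, against 55.3, 57.0, 61.3, 57.6 and 61.3 CPM in control 1 to 5. Knockout 4 lay within the controls and the other knockouts above them, and Pmvk rose by 0.47 on the log2 scale (SE 0.11, adjusted p = 0.022). Mvd (ENSMUSG00000006517, chr8:122433601-122443422, minus strand), the decarboxylase that yields isopentenyl diphosphate, stood at 20.5, 18.4, 16.7, 12.8 and 20.1 CPM in knockout 1 to 5, against 11.8, 12.2, 11.7, 12.4 and 12.7 CPM in control 1 to 5. Its lowest knockout, knockout 4, was just above the highest control, and Mvd rose by 0.54 on the log2 scale (SE 0.12, adjusted p = 0.016). Idi1 (ENSMUSG00000058258, chr13:8885501-8892451, plus strand), the isomerase that turns isopentenyl diphosphate into its reactive partner, stood at 21.1, 21.5, 18.3, 17.4 and 22.6 CPM in knockout 1 to 5, against 13.9, 14.1, 14.9, 15.1 and 16.2 CPM in control 1 to 5. It rose with no overlap between the groups (log2 fold change 0.44, SE 0.0873, adjusted p = 0.012).

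Hmgcs1, the synthase that makes HMG-CoA, had the highest level per length of the 18 enzymes, at 158 CPM per kilobase of exon in knockouts and 128 in controls. It stood at 605, 765, 736, 611 and 916 CPM in knockout 1 to 5, against 634, 558, 607, 557 and 585 CPM in control 1 to 5. Knockouts 1 and 4 lay inside the control range, and the gene did not pass (log2 fold change 0.30, SE 0.11, adjusted p = 0.075), although it did without knockout 1 (adjusted p = 0.032). Acat2, the thiolase that joins acetyl-CoA units, averaged 81.3 ± 13.0 CPM in knockouts and 70.4 ± 8.42 CPM in controls (SD, n = 5 each) and did not pass (adjusted p = 0.234). Its mouse paralog Acat3 is annotated beside it, so reads could be split between the pair. Fdps, which builds farnesyl diphosphate, averaged 5.61 ± 1.24 CPM in knockouts and 4.68 ± 0.815 CPM in controls (SD, n = 5 each; adjusted p = 0.336). At 1.33 CPM per kilobase in knockouts and 1.11 in controls it was the lowest of the 18 enzymes, and 26.7% of its exonic bases are shared with Gm43738 on the same strand, so its level is uncertain.

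In the second stretch, from squalene to cholesterol, 3 of 11 enzymes rose and 8 did not pass. Lss (ENSMUSG00000033105, chr10:76531588-76557138, plus strand), the cyclase that closes the sterol rings, stood at 89.2, 107, 104, 81.2 and 116 CPM in knockout 1 to 5, against 68.2, 70.7, 70.6, 67.6 and 66.8 CPM in control 1 to 5. The controls lay close together, each knockout lay above them, and the adjusted p of 0.0051 was the smallest among the members (log2 fold change 0.53, SE 0.0861). Cyp51 (ENSMUSG00000001467, chr5:4081145-4104746, minus strand), the cytochrome P450 that takes the first methyl group off lanosterol, stood at 100, 91.9, 92.4, 77.1 and 121 CPM in knockout 1 to 5, against 66.8, 65.3, 70.1, 66.9 and 72.6 CPM in control 1 to 5. The groups did not overlap (log2 fold change 0.50, SE 0.0960, adjusted p = 0.011). Hsd17b7 (ENSMUSG00000026675, chr1:169949535-169969241, minus strand), a keto-reductase of the demethylation cycle, stood at 27.3, 31.8, 29.7, 27.4 and 29.6 CPM in knockout 1 to 5, against 20.7, 19.8, 24.2, 21.6 and 24.9 CPM in control 1 to 5. It rose with no overlap between the groups (log2 fold change 0.39, SE 0.0782, adjusted p = 0.013).

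Fdft1, the squalene synthase at the branch into sterols, had the only negative log2 fold change of the enzymes. It stood at 31.1, 36.7, 31.1, 32.6 and 36.7 CPM in knockout 1 to 5, against 34, 36.3, 37.7, 29.8 and 35.3 CPM in control 1 to 5. The groups overlapped throughout (log2 fold change -0.04, SE 0.0779, adjusted p = 0.739), and a difference of Fdft1 from the other enzymes was not tested. On the opposite strand Ctsb covers 18.3% of the exonic bases of Fdft1, and the strand setting of the counting is not stated. Sqle, the epoxidase that follows, averaged 22.3 ± 1.71 CPM in knockouts and 18.7 ± 1.59 CPM in controls (SD, n = 5 each) and narrowly did not pass (adjusted p = 0.056). Msmo1 and Nsdhl, which oxidise and strip the remaining methyl groups with Hsd17b7, had log2 fold changes of 0.21 and 0.40 (adjusted p = 0.082 and 0.051). Nsdhl ranged from 72.5 to 122 CPM in knockouts and from 61.2 to 79.7 CPM in controls, so the wide spread lay on the knockout side. Ebp, the isomerase that shifts the ring double bond, lay between 37.5 and 43.3 CPM in knockouts and between 33.8 and 36.6 CPM in controls, without overlap yet without passing (adjusted p = 0.084). Dhcr7, the reductase of the last step, and Tm7sf2, an earlier sterol reductase, had log2 fold changes of 0.32 and 0.24 (adjusted p = 0.067 and 0.291). Sc5d, the desaturase before Dhcr7, was plentiful at 308 ± 63.1 CPM in knockouts and 277 ± 29.2 CPM in controls (SD, n = 5 each; adjusted p = 0.436).

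**Figure D3:**
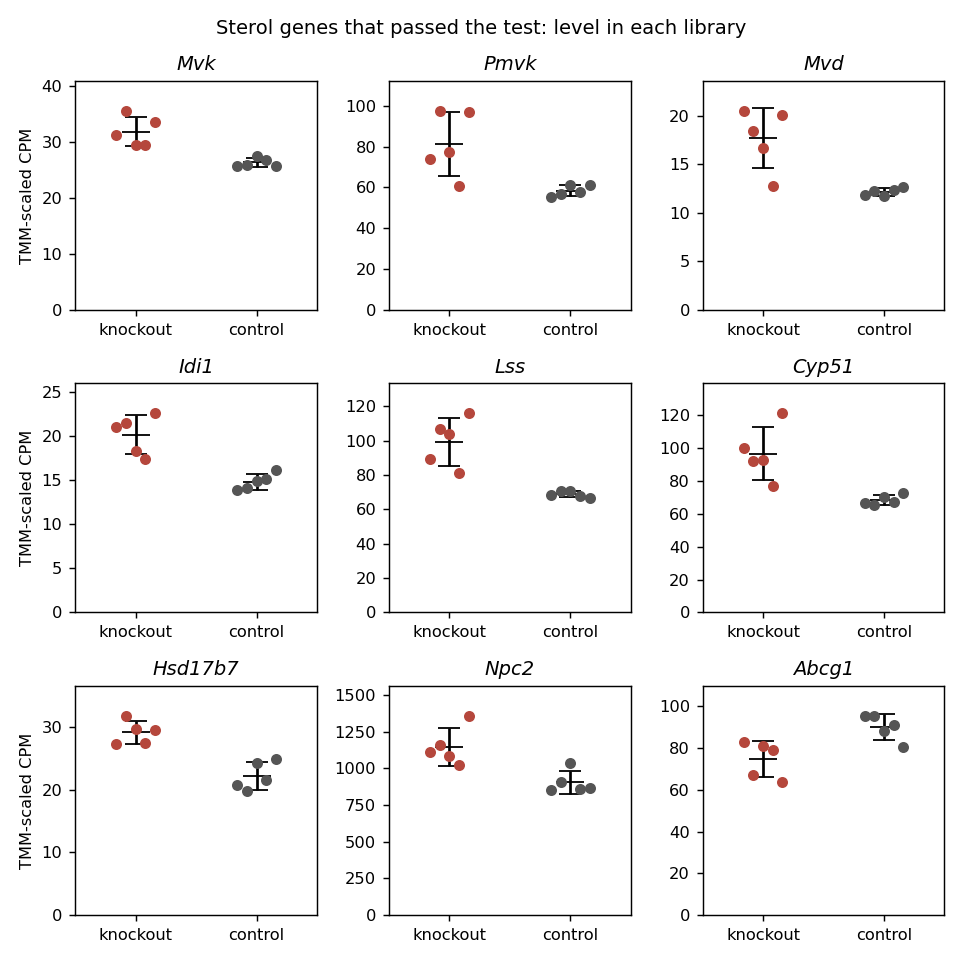
TMM-scaled CPM in each library (points) with the mean and SD (bars, n = 5 each) for the 9 sterol genes that passed, knockout left and control right. Both groups overlap for Pmvk, Npc2 and Abcg1 and for none of the other 6 genes.

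Among the knockouts the same libraries were often high or low across enzymes. Knockout 5 was the highest knockout for 10 of 18 enzymes, and knockout 4 the lowest for 13 of 18. Knockout 5 lay above each control for 17 enzymes, knockout 2 for 16, knockout 3 for 15, knockout 1 for 11 and knockout 4 for 8. Summed over the 18 enzymes the level was 1573, 1872, 1725, 1438 and 2149 CPM in knockout 1 to 5, against 1494, 1392, 1479, 1323 and 1442 CPM in control 1 to 5. The spread of this sum was wider in knockouts (mean 1751, SD 275) than in controls (mean 1426, SD 69.7), and knockout 4 lay inside the control range. Hmgcs1 and Sc5d, which did not pass, weighed most in it, at means of 726 and 308 CPM in knockouts and 588 and 277 CPM in controls. Among the enzymes that passed, knockout 4 lay above each control for all but Pmvk. Adipocyte markers summed to 25205, 31338, 28900, 27739 and 34092 CPM in knockout 1 to 5, against 25307, 26195, 28417, 23215 and 29508 CPM in control 1 to 5. Knockouts 5, 2 and 3 were thus the highest knockouts, in that order, for both sums. Knockout 1 lay above knockout 4 for the enzymes and below it for the markers. Control 4 was the lowest control for both sums, but control 1 was highest for the enzymes and control 5 for the markers. Of the 10 markers, 3 had a log2 fold change above 0 (median -0.05). The part of adipocyte content in the enzyme levels was not tested.

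**Figure D4:**
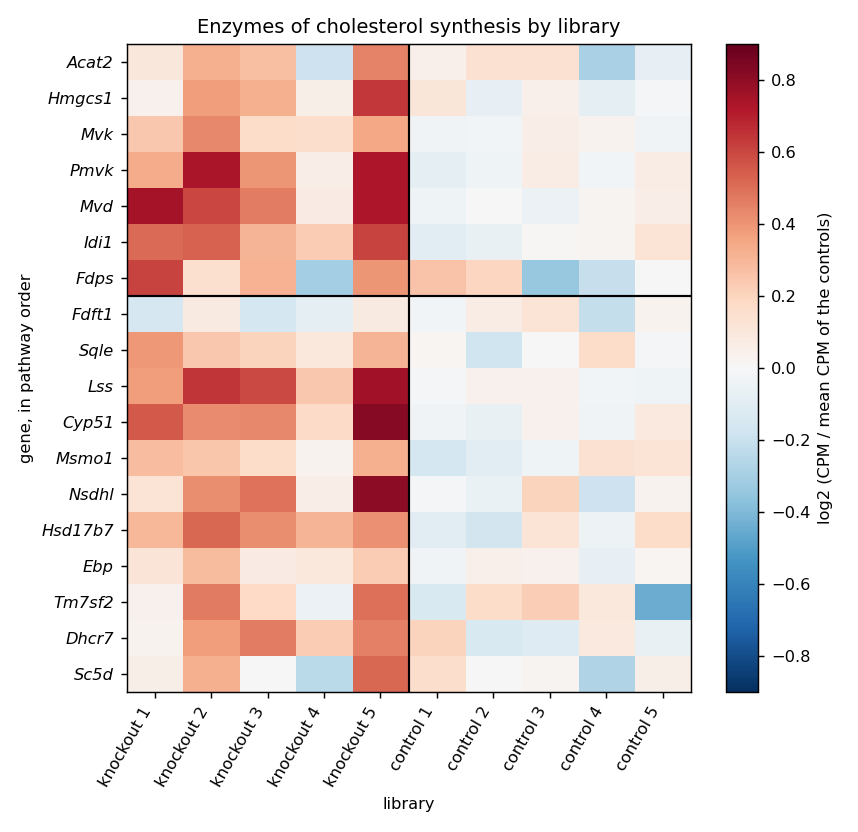
Log2 ratio of each library to the mean CPM of the controls for the 18 enzymes, in pathway order, with knockouts left and controls right of the vertical line and the branch into sterols at the horizontal line. Most enzymes are above the control mean in knockouts 2, 3 and 5, knockout 4 is pale, and Fdft1 shows no contrast.

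Of the 4 sensing genes 0 passed in edgeR, DESeq2 or limma-voom, and 0 had an unadjusted p below 0.05. Their log2 fold changes lay between 0.02 and 0.32. Insig1, the anchor that is itself induced by SREBP-2, stood at 795, 955, 847, 453 and 854 CPM in knockout 1 to 5, against 637, 625, 567, 606 and 684 CPM in control 1 to 5. Knockout 4 lay below each control and the other 4 knockouts above each control, and the gene did not pass (log2 fold change 0.32, SE 0.15, adjusted p = 0.173), although it did without knockout 4 (log2 fold change 0.47, adjusted p = 0.0086). Insig2, its paralog, averaged 43.1 ± 4.16 CPM in knockouts and 42.5 ± 2.95 CPM in controls (SD, n = 5 each; adjusted p = 0.888). Srebf2, which encodes SREBP-2, stood at 29.1, 20.2, 18.9, 15.1 and 15.9 CPM in knockout 1 to 5, against 18, 14.9, 14.5, 21 and 16.5 CPM in control 1 to 5. Knockout 1 was the highest library and the groups otherwise overlapped (log2 fold change 0.23, SE 0.17, adjusted p = 0.366). Without knockout 1 the log2 fold change was 0.06 (adjusted p = 0.773). Scap, the escort, had a log2 fold change of 0.11 (adjusted p = 0.376).

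In uptake and transfer, 1 of 5 genes rose and 4 did not pass. Npc2 (ENSMUSG00000021242, chr12:84754562-84773152, minus strand), the soluble lysosomal protein that hands cholesterol to NPC1, stood at 1110, 1156, 1081, 1023 and 1358 CPM in knockout 1 to 5, against 852, 908, 1039, 857 and 864 CPM in control 1 to 5. Knockout 4 lay below control 3, and the other knockouts lay above all controls (log2 fold change 0.34, SE 0.0880, adjusted p = 0.028). Its membrane partner Npc1 averaged 66.1 ± 4.59 CPM in knockouts and 63.9 ± 2.21 CPM in controls (SD, n = 5 each; adjusted p = 0.623). Stard4, a carrier between membranes and in other tissues an SREBP-2 target, stood at 13.6, 9.85, 10.8, 9.49 and 11.5 CPM in knockout 1 to 5, against 14.4, 13.5, 12.4, 13.7 and 13.5 CPM in control 1 to 5. All knockouts but knockout 1 lay below the controls, opposite in sign to most enzymes, and Stard4 did not pass (log2 fold change -0.29, SE 0.10, adjusted p = 0.080), although it did without knockout 1 (adjusted p = 0.022). Scarb1, the receptor for high-density lipoprotein, and Mylip, a ubiquitin ligase that sends lipoprotein receptors to degradation, had log2 fold changes of -0.18 and -0.24 (adjusted p = 0.148 and 0.139).

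In efflux and storage, 1 of 3 tested genes fell and 2 did not pass. Abcg1 (ENSMUSG00000024030, chr17:31057675-31117988, plus strand), the pump that loads cholesterol onto high-density lipoprotein, stood at 83.0, 67.1, 81.1, 78.9 and 63.7 CPM in knockout 1 to 5, against 95.5, 95.2, 88.3, 91.1 and 80.5 CPM in control 1 to 5. It fell by 0.27 on the log2 scale (SE 0.0821, adjusted p = 0.048), with control 5 inside the knockout range. Abca1, the pump that loads lipid-poor apolipoprotein, was far more abundant at 609 ± 55.0 CPM in knockouts and 670 ± 57.9 CPM in controls (SD, n = 5 each) and did not pass (log2 fold change -0.14, adjusted p = 0.265). Soat1, which esterifies cholesterol for storage, averaged 67.3 ± 6.09 CPM in knockouts and 69.7 ± 5.0 CPM in controls (SD, n = 5 each; adjusted p = 0.662). Ch25h, which makes an oxysterol, had 18, 8, 13, 10 and 8 counts in knockout 1 to 5, against 12, 4, 10, 6 and 5 counts in control 1 to 5, too few for the filter. Macrophages also express these pumps, and the 10 macrophage markers summed to between 2783 and 3187 CPM in knockouts and between 2655 and 3480 CPM in controls, with 0 of 10 called (edgeR, DESeq2 and limma-voom), 0 at an unadjusted p below 0.05 and none at 0 in all libraries. Other marker lists did move, as given above. In edgeR 6 of 8 endothelial and 3 of 6 tested Schwann cell markers were lower, and 5 of 8 T cell and 4 of 6 B cell markers higher. What share of the Abcg1 and Npc2 reads came from any of these cell types was not tested.

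Across 5 lists of other genes of the pathway, 6 of 56 tested genes passed (10.7%), a share near the 12.9% of all tested genes. In the isoprenoid branch, which uses farnesyl diphosphate to modify proteins and build ubiquinone, 1 of 12 was higher and 0 lower, the carboxyl methyltransferase Icmt (log2 fold change 0.25, adjusted p = 0.049). Of 9 genes that process SREBP or degrade sterol regulators, 0 passed in edgeR and DESeq2 and 1 in limma-voom, with 2 at an unadjusted p below 0.05. The smallest edgeR p among them was that of Erlin2, part of the complex that marks sterol sensors for degradation (log2 fold change 0.17, adjusted p = 0.093). Among 15 other genes of sterol transport, Tmem97, a sterol-binding protein that acts on NPC1, rose to 20.3 ± 3.65 CPM in knockouts, against 14.4 ± 0.937 CPM in controls (SD, n = 5 each; log2 fold change 0.50, adjusted p = 0.020). In that list 1 gene passed in edgeR. In DESeq2 2 were higher and 0 lower, and in limma-voom 2 were higher and 1 lower. Vldlr, a receptor for very-low-density lipoprotein, had an adjusted p of 0.080 in edgeR, 0.038 in DESeq2 and 0.015 in limma-voom (log2 fold change 0.29), and Gramd1b, a carrier from the plasma membrane, one of 0.171, 0.248 and 0.041 in the same order (log2 fold change -0.21). In the oxysterol and liver X receptor list, 2 of 8 tested genes fell and 0 rose in edgeR. Arl4c, a small GTPase induced by liver X receptors, had the largest log2 fold change of the list in size with all libraries, 0.58. Its adjusted p was 0.056 in edgeR, 0.015 in DESeq2 and 0.033 in limma-voom. Arl4c stood at 38.4, 18.7, 23.8, 21.4 and 17.5 CPM in knockout 1 to 5, against 14.1 to 17.7 CPM in controls. The size thus leaned on knockout 1. Without control 5 and knockout 1 it was 0.35 (edgeR adjusted p = 0.034), smaller in size than that of Abca5 or Cyp27a1 in that fit (-0.40 and -0.36). The genes that fell were Abca5, a lysosomal transporter, at 26.5 ± 2.78 CPM in knockouts and 35.5 ± 2.81 CPM in controls (log2 fold change -0.42, adjusted p = 0.011), and Cyp27a1, a sterol hydroxylase of mitochondria, at 29.6 ± 3.81 CPM in knockouts and 38.9 ± 4.86 CPM in controls (log2 fold change -0.40, adjusted p = 0.030; SD, n = 5 each for both genes). In the fatty acid arm of SREBP, 2 of 12 were higher and 0 lower in edgeR. Elovl5, a fatty acid elongase, had a log2 fold change of 0.32 (adjusted p = 0.011), and Fasn, the fatty acid synthase, of 0.46 (adjusted p = 0.039). DESeq2 called 3 of this list higher and 0 lower, and limma-voom 3 higher and 1 lower. Scd1, the most abundant gene of the list, went the other way (log2 fold change -0.36). It averaged 15480 ± 3022 CPM in knockouts and 19863 ± 2607 CPM in controls (SD, n = 5 each). Scd1 was the lower gene in limma-voom (adjusted p = 0.034) and did not pass in edgeR (adjusted p = 0.094). Abca5 and Elovl5 passed whichever of the 10 libraries was left out. Adjusted p reached 0.060 for Tmem97 (lost without control 1 or 2), 0.084 for Cyp27a1 (lost without control 1, 2 or 4 or knockout 2 or 5), 0.122 for Icmt (passing in 3 of 10) and 0.099 for Fasn (passing in 2 of 10).

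Some calls depended on single libraries. Mvd, Idi1, Lss, Cyp51 and Hsd17b7 passed whichever of the 10 libraries was left out, with adjusted p up to 0.045. Without control 1, control 2, knockout 2 or knockout 5 Mvk no longer passed (up to 0.064), nor did Pmvk without control 1, 2 or 4 or knockout 5 (up to 0.064), or Npc2 without control 1, 2 or 4 or knockout 2 or 5 (up to 0.080). Abcg1 passed in 2 of these 10 fits, those without control 5 or knockout 1 (adjusted p up to 0.120 in the others). Sqle passed without knockout 4 (adjusted p = 0.044), Msmo1 without control 5 (0.046), Dhcr7 without knockout 1 (0.024), Nsdhl without control 3, knockout 1 or knockout 4 (as low as 0.026) and Scarb1, as lower, without control 5 (0.034). Leaving out control 1, control 2 or knockout 5 gave 5 higher members each, where 1.43%, 1.41% and 2.41% of tested genes were higher. Leaving out knockout 1 or knockout 4 gave 11 each, where 6.97% and 5.15% were higher. The 2 lower members without control 5 or without knockout 1 stood beside 10.6% and 7.15% of tested genes. Without control 5 and knockout 1 together, 11 members were higher and 3 lower (Scarb1, Stard4 and Abcg1), where 11.1% of tested genes were higher and 12.6% lower. By tool, 12 members were higher and 1 lower in DESeq2 (8.04% and 7.25% of its tested genes), and 13 higher and 3 lower in limma-voom with quality weights (10.7% and 11.9%). Without a low-count filter 10 were higher and 0 lower (3.27% and 2.55%).

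A score of 786 transcripts annotated as intronic or unconfirmed single-exon models moved with genotype and lay between 0.06 and 0.46 in knockouts and between 0.38 and 1.27 in controls (mean log2 CPM). With the score in the edgeR model 0 of the 30 members were called and 4 had an unadjusted p below 0.05, where 0.0691% of tested genes were called higher and 0.239% lower. The log2 fold change went from 0.53 to 0.46 for Lss (adjusted p = 0.311) and from 0.54 to 0.47 for Mvd (adjusted p = 0.424). It went from 0.50 to 0.32 for Cyp51 (adjusted p = 0.469) and from 0.44 to 0.28 for Idi1 (adjusted p = 0.470). For Pmvk it went from 0.47 to 0.26 (adjusted p = 0.613), for Mvk from 0.27 to 0.22 (adjusted p = 0.483). Hsd17b7 moved from 0.39 to 0.18 (adjusted p = 0.521). Of the enzymes, 16 of 18 stayed above 0. Abcg1 moved to -0.04 (adjusted p = 0.922), and the median of efflux and storage turned to 0.06. The part of the score in these results was not tested apart from genotype.

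**Figure D5:**
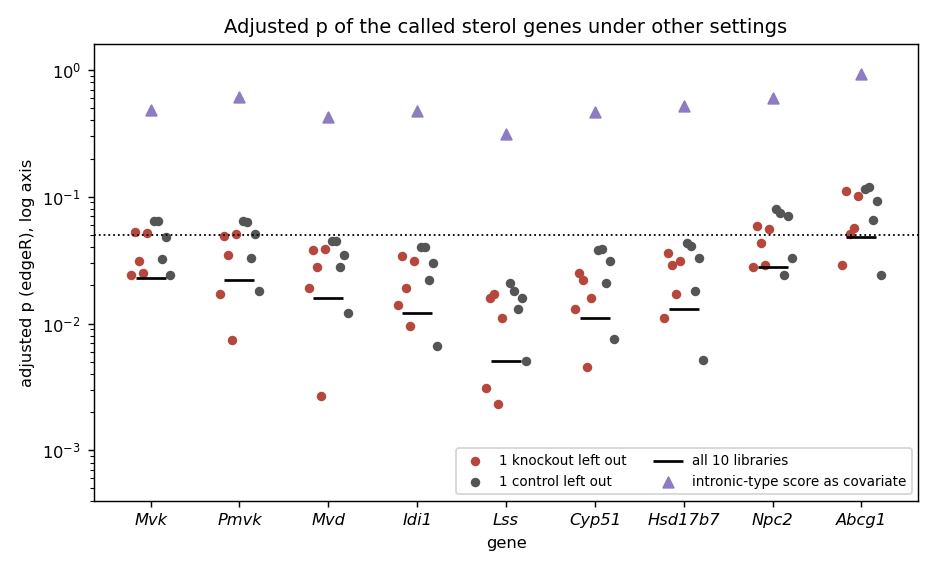
Adjusted p on a log axis for the 9 sterol genes that passed, with all libraries (bars), with 1 library left out (points) and with the intronic-type score in the model (triangles), and the threshold of 0.05 dotted. The points of Mvd, Idi1, Lss, Cyp51 and Hsd17b7 stay below the threshold, and all triangles lie above it.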

How the data were processed

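Total RNA was depleted of ribosomal RNA and made into strand-marking libraries, per the labels' protocols. The authors deposited whole-number counts of reads per gene for 10 libraries in a single table. Per the submitters' processing notes the tools were STAR 2.5.2b, featureCounts 1.5.1 and DESeq2 1.16.0, and the build GRCm38. Annotation release, strand setting and multi-mapping reads: not given in the sources used here.

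Identifiers were matched to GENCODE M21 on GRCm38 (52489 of 52636). Counts were filtered with filterByExpr, scaled by TMM and tested two-sided by quasi-likelihood in edgeR 4.0.16 (R 4.3.3), with no covariate and Benjamini-Hochberg adjustment over all tested genes. Log2 fold changes are knockout over control. Alternatives were RLE scaling, DESeq2 1.42.0, limma-voom (limma 3.58.1) with quality weights, other filters, the intronic-type covariate and leaving out each library. Leaving out control 5 and knockout 1 together was added after seeing the data. The scripts were tested on simulated data with 200 of 15927 genes changed, fewer than the 2053 genes called here. There edgeR recovered 9.5% of genes changed 1.3-fold, 52.5% at 1.5-fold and 82% at 2-fold. A gene that did not pass may therefore still differ by a small fold. The 20 replicate pairs differed by more than sampling noise (chi-square per degree of freedom 7.28 to 29.7). The text names each member, Tcf7l2, and from each other pathway list genes among the 3 of smallest p. Scd1 is named beyond this rule, as the most abundant gene of its list. The members and lists were chosen with earlier results of these data known. Replicates were numbered in record order and pair nothing.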

Additional observations from a re-analysis of the deposited data

Results flagged for a closer look

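Among the genes named here, 94 groups of 5 libraries were screened for a library far from the other 4, and chance alone gives such a gap in about 1 in 20 groups. The screen found 2 values, neither in a member. Rce1, a protease that trims prenylated proteins, stood at 18.9 CPM in knockout 4, against 21.2 to 22 CPM in the other knockouts. Syvn1, a ubiquitin ligase of the endoplasmic reticulum, stood at 10.5 CPM in control 2, against 12.4 to 13.2 CPM in the other controls.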

How the results depend on the processing

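With all 10 libraries, 2053 genes, 8 higher members and 1 lower member were called, with 5.84% of tested genes higher and 7.05% lower. limma-voom with quality weights called 3605 genes, 13 higher members and 3 lower members, with 10.7% of tested genes higher and 11.9% lower. Adding the intronic-type score to the model gave 49, 0 and 0, and a median of efflux and storage of 0.06, reversed against -0.14. Without a low-count filter 10 members were higher and 0 lower, with 3.27% of tested genes higher and 2.55% lower. DESeq2 called 12 members higher and 1 lower, where 8.04% of its tested genes were higher and 7.25% lower. Without control 5 and knockout 1, 3774 genes, 11 higher members and 3 lower members were called, with 11.1% of tested genes higher and 12.6% lower. Over the fits that left out 1 library, the number of genes ran from 537 to 3094, of higher members from 5 to 11 and of lower members from 0 to 2. Their medians ran from 0.26 to 0.38 for acetyl-CoA to farnesyl diphosphate, 0.24 to 0.31 for squalene to cholesterol, 0.07 to 0.22 for sensing, -0.24 to -0.12 for uptake and transfer and -0.18 to -0.10 for efflux and storage. RLE scaling and a filter of at least 1 CPM in 5 libraries moved 0 of 30 tested members across the threshold. For changes across these settings the cause was not tested. No paired analysis was possible because the labels give the groups no shared replicate number. A floor of 3 counts lay between 0.172 and 0.205 CPM, for counting error only.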
